A study of Mus musculus with 6 samples.

Results

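The 6 genes Car2, Car4, Car5b, Car8, Car12 and Car13 were followed in single-cell RNA-seq (scRNA-seq) of mouse small intestinal organoids, 3D epithelial cultures derived from the duodenum. They were taken by symbol from the 32285 genes counted and were present in the gene list of each of the 6 libraries. They were not picked by a rule on their values here, but earlier results of these data were known when they were chosen. They belong to the carbonic anhydrases, zinc enzymes that interconvert CO2 and water with bicarbonate and a proton and thereby set how fast a cell can buffer and move acid. Members act in different places. Car2 and Car13 are cytosolic, Car5b is mitochondrial, Car4 is held on the outer face of the membrane by a lipid anchor, and Car12 spans the plasma membrane with its active site outside. Car8 is related in sequence but lacks the catalytic activity, and its protein is known to bind the inositol trisphosphate receptor, a calcium channel of the endoplasmic reticulum. In the intestine, carbonic anhydrases are known to supply bicarbonate and protons to the transporters of the epithelial membranes.

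Organoids were collected on day 3. WT organoids, from stocks obtained from 10-week-old mice, gave 2 libraries kept in DMSO (-EIPA) and 2 kept in 5 µM EIPA (+EIPA), an amiloride derivative that inhibits Na+/H+ exchange. The inducible CRISPR-Cas9 organoids were WT organoids infected with a lentivirus that carries a guide RNA, selected with puromycin and established as single clones, and from these came a -Dox library and a +Dox library, the second after Dox at 2 µg/mL. Doses are those of the methods for organoid cultures. Cells of each library were sorted as live, and those of +Dox also as GFP-positive, so Dox and the sort cannot be told apart.

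A cell was kept if it had 1000 genes or more and a mitochondrial UMI share below 20%, which left 87954 cells in all and 12083 to 18211 per library, with 161670015 to 239368573 UMIs per library and a median of 11477.5 to 17020 UMIs per cell. Any pair of libraries shared 33 to 78 cell barcodes. Called doublets, 11.5% to 20.4% of the cells kept, were left in. Their share differed between the classes named below. Without them, Paneth-like cells of -Dox fell from 1011 to 685 and Goblet-like cells of -EIPA 1 from 612 to 406. ISC-like cells of -EIPA 1 fell from 1428 to 1331. Tuft-like cells fell from 69 to 38 in -Dox and from 52 to 50 in +Dox. Of 24 clusters, 5 stayed unnamed, and the classes of the others are called "-like" because they rest on markers alone. The unnamed clusters held 14.3% to 19.8% of the cells and 12.9% to 17.2% of the Car13 UMIs of a library. Erythroid genes, which mark red cells rich in Car2, summed to at most 0.526 CPM (UMIs per 1000000 UMIs) in a library. The 20 EEC (enteroendocrine) markers summed to 36375 to 43007 CPM in EEC-like cells of the WT libraries but to 4312 CPM in -Dox and 4830 CPM in +Dox. Cluster 13 held 65.3% and 65.4% of the EEC-like cells of -Dox and +Dox, against 36.8% to 40.3% in WT. EEC-like values of the CRISPR line are therefore given beside these. The 13 goblet markers summed to 22853 to 48296 CPM in Goblet-like and 36734 to 52816 CPM in Paneth-like cells. They were higher in Paneth-like cells in every library but +Dox. Cluster 9, 83.1% to 94.4% of Goblet-like cells, had the secretory progenitor markers Dll1 and Atoh1 among its leading genes. The 6 such markers summed to 292 to 389 CPM in Goblet-like and 201 to 263 CPM in Paneth-like cells.

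The catalytic zinc of a carbonic anhydrase is held by histidines at 3 positions. The coding stretch around them is shown for the 5 catalytic members, to show what the enzymes share there. Each runs 5′ to 3′ on the coding strand, from the codon before the first of these positions to the codon after the third, joined across 2 coding exons (build GRCm38, GENCODE vM21), and capitals mark the codons at the 3 positions. CAT and CAC encode histidine.
Car2: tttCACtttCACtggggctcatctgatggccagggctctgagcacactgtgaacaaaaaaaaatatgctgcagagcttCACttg
Car13: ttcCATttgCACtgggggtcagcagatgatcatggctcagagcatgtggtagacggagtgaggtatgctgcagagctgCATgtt
Car5b: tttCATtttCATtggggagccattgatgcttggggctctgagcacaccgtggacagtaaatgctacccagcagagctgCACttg
Car4: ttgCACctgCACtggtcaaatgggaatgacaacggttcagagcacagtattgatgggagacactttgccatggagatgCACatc
Car12: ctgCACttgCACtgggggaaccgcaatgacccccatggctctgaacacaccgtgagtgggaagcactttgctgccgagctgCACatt

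These members had a histidine codon at all 3 positions. Over the whole coding sequence, Car2 and Car13 shared 56.9% of aligned codons by the residue encoded, Car5b and Car13 53.8%, and Car2 and Car5b 52.3%, while Car4 and Car5b shared 31.8%, the lowest among these 5 members. Car2 (ENSMUSG00000027562) lies at chr3:14886273-14900770 on the plus strand and Car13 (ENSMUSG00000027555) at chr3:14641727-14663002 on the plus strand, 223 kb away. Car8 (ENSMUSG00000041261) lies at chr4:8143362-8239041 on the minus strand, Car12 (ENSMUSG00000032373) at chr9:66713686-66766845 on the plus strand, Car4 (ENSMUSG00000000805) at chr11:84957786-84966044 on the plus strand and Car5b (ENSMUSG00000031373) at chrX:163976822-164027997 on the minus strand. The printed stretch lies at chr3:14895066-14895543 for Car2, chr3:14650703-14654892 for Car13, chrX:163990512-163991425 for Car5b, chr11:84964164-84964356 for Car4 and chr9:66747644-66750938 for Car12, with its intron inside these bounds. Car8 overlaps Gm11799, a processed pseudogene on its own strand, and Gm25355, a miRNA gene on the other strand, so reads of Gm11799 could be counted with it. The other members overlap no annotated gene.

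The members fell into 3 that were counted well (Car8, Car12 and Car13), Car2, which was counted well in the WT line only, and Car4 and Car5b, which reached at most 0.370 and 0.207 CPM over all cells kept. CPM is not scaled by transcript length, so levels are compared within a gene. Car8 had 41.4 and 47.7 CPM in -EIPA, 43.1 and 41.8 CPM in +EIPA, 42.0 CPM in -Dox and 69.2 CPM in +Dox, so that 5 libraries lay close together and +Dox stood above them. Car12 had 15.6 and 13.9 CPM in -EIPA, 16.7 and 13.9 CPM in +EIPA, 14.6 CPM in -Dox and 13.6 CPM in +Dox, the narrowest range of the members relative to their level. Car13 had 16.7 and 17.7 CPM in -EIPA, 24.2 and 27.4 CPM in +EIPA, 12.7 CPM in -Dox and 17.9 CPM in +Dox. Both +EIPA libraries thus lay above the other 4 for Car13, and above both -EIPA libraries as did 10.8% of genes of at least 10 CPM, while 44.9% lay below. Car2 had 3.25 and 3.82 CPM in -EIPA, 4.70 and 6.24 CPM in +EIPA, 0 in -Dox and 0.0253 CPM in +Dox. Car4 was counted with 20 and 22 UMIs in -EIPA, 48 and 86 UMIs in +EIPA, 2 in -Dox and 1 in +Dox. Car5b, with 12 to 49 UMIs per library, was near the limit of detection everywhere.

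**Figure D1:**
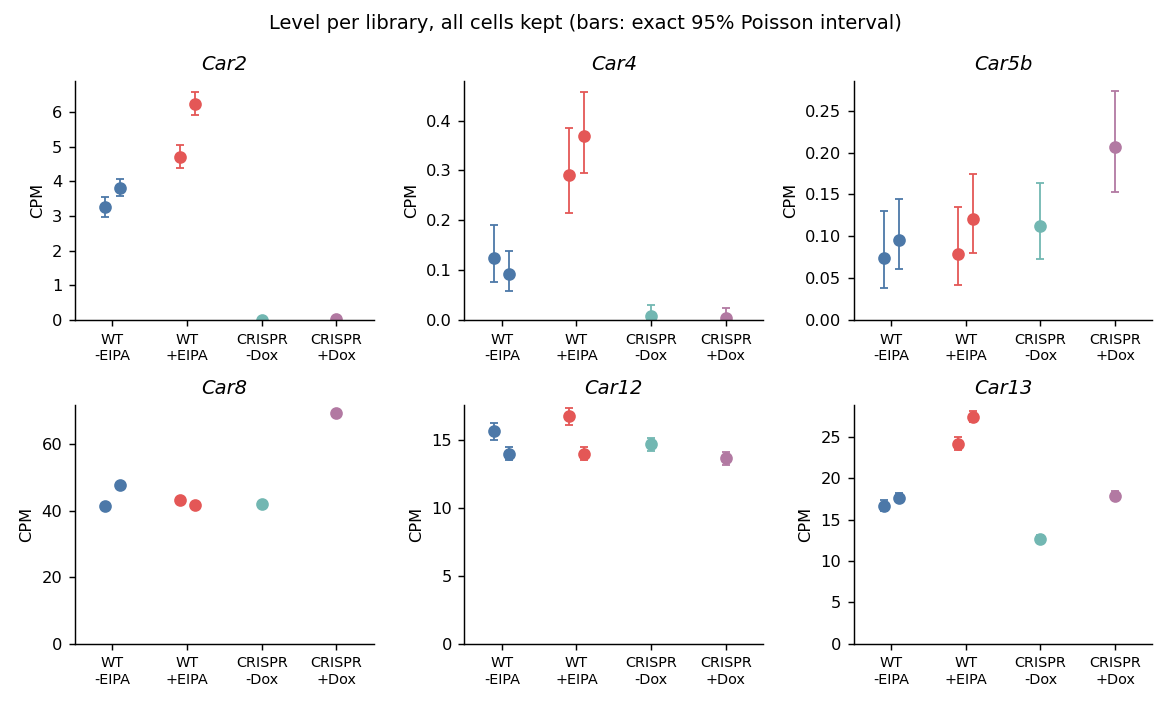
CPM of each member over all cells kept (vertical axis, from 0), by group (horizontal axis), with 1 point per library and bars for the exact 95% Poisson interval, which covers counting error only. Car13 and Car2 are highest in the 2 +EIPA libraries, Car8 is highest in +Dox at 69.2 CPM, and Car2 is at 0 in -Dox and at 0.0253 CPM in +Dox.

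Car8, the member without catalytic activity, was highest in Paneth-like cells, the crypt cells that secrete antimicrobial peptides. There it had 129 and 120 CPM in -EIPA, 103 and 98.3 CPM in +EIPA, 164 CPM in -Dox and 180 CPM in +Dox, a median of 124 CPM over the 6 libraries. Next came EEC-like cells with a median of 89.8 CPM (53.6 to 95.6), a range that did not reach that of Paneth-like cells and lay below them in 6 of 6 libraries. Goblet-like cells (77.2 CPM, 70.0 to 147) and ISC-like cells (72.5 CPM, 60.2 to 115) followed, and the ranges of EEC-like, Goblet-like and ISC-like cells overlapped. Revival-like (45.5 CPM), Proliferating-like (36.9 CPM) and Tuft-like cells (31.3 CPM) also overlapped each other. Enterocyte-like cells had 7.67 to 15.5 CPM and lay below every other class in 6 of 6 libraries. Each order of classes is a description, since the classes were formed from the same cells, although no carbonic anhydrase gene was among the 3000 genes used to cluster.

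Within the EEC-like class, Car8 was spread unevenly. Cluster 20, in which 11 of the 20 leading genes were EEC markers, had 195, 174, 212 and 196 CPM in the 4 WT libraries and 71.6 and 143 CPM in -Dox and +Dox. Cluster 13, which made up most of this class in the CRISPR line, had 31.7 to 39.2 CPM in WT, 29.6 CPM in -Dox and 53.5 CPM in +Dox. The Car8 level of WT cells in cluster 20 was thus above that of Paneth-like cells in the same libraries.

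After each cell was thinned to 2000 UMIs, 19.0% to 32.0% of Paneth-like cells held a Car8 UMI (66.6% to 89.7% unthinned, median depths of 9409 to 14260 UMIs). In Enterocyte-like cells, the class with the lowest share, it was 1.33% to 2.39% (7.03% to 13.6% unthinned, median depths of 11123 to 16825 UMIs). The Enterocyte-like share is given as the lowest reference. Within that class Car8 had 4.15 to 8.75 CPM in cluster 6 and 12.7 to 24.2 CPM in cluster 10, and the part of free RNA in the droplets was not tested.

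Car12, the transmembrane member with an outward active site, was highest, among the named classes, in ISC-like cells. These had 30.4 and 25.1 CPM in -EIPA, 35.3 and 31.2 CPM in +EIPA, 27.6 CPM in -Dox and 26.0 CPM in +Dox. Proliferating-like cells had 19.1 and 15.7 CPM in -EIPA, 23.1 and 19.7 CPM in +EIPA, 17.7 CPM in -Dox and 21.6 CPM in +Dox. The ranges of these classes did not meet, and the Proliferating-like level was the lower in 6 of 6 libraries. Tuft-like (12.7 CPM), EEC-like (11.5 CPM), Paneth-like (9.79 CPM) and Goblet-like cells (9.40 CPM) overlapped, as did Revival-like (6.96 CPM) and Enterocyte-like cells (4.39 CPM). In thinned cells the share with a Car12 UMI was 4.70% to 6.81% in ISC-like cells and 0.409% to 1.44% in Enterocyte-like cells.

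Car13, a cytosolic member, was highest among the named classes in Revival-like cells, named from markers of regenerating epithelium, with 37.3 and 41.8 CPM in -EIPA, 52.9 and 62.0 CPM in +EIPA, 35.5 CPM in -Dox and 52.6 CPM in +Dox. Enterocyte-like cells, the absorptive class, had 33.9 and 30.5 CPM in -EIPA, 52.6 and 68.0 CPM in +EIPA, 17.9 CPM in -Dox and 33.3 CPM in +Dox, a range that overlapped that of Revival-like cells. Proliferating-like cells (17.2 CPM) and ISC-like cells (11.8 CPM) lay below both in 6 of 6 libraries, and Paneth-like cells were lowest with a median of 7.08 CPM. In thinned cells the share with a Car13 UMI was 3.39% to 12.6% in Enterocyte-like cells and 0.426% to 1.205% in EEC-like cells, whose depth was lower, with medians of 4983 to 6719 UMIs.

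Car2, the other cytosolic member, had its highest WT range in Revival-like cells, with 10.53, 10.4, 21.2 and 17.3 CPM in -EIPA 1, -EIPA 2, +EIPA 1 and +EIPA 2. Tuft-like cells had 11.6, 8.44, 6.01 and 11.0 CPM and Enterocyte-like cells 5.53, 5.93, 8.77 and 11.6 CPM, so that Tuft-like cells were the higher in both -EIPA libraries and the lower in both +EIPA libraries. Paneth-like cells had 1.07 to 2.61 CPM in WT. Ranges over 6 libraries are not compared, since -Dox held 0 Car2 UMIs in every class. In WT the range of Paneth-like cells lay below that of Enterocyte-like cells.

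Car4 and Car5b were seen in few cells. Car4 was highest by median in EEC-like cells, at 1.23 and 1.04 CPM in -EIPA, 2.02 and 3.14 CPM in +EIPA and 0 in both CRISPR libraries, where 3 counts would be 0.934 and 0.366 CPM. Within the class, cluster 20 held 48 Car4 UMIs, with 3.26 to 9.15 CPM in WT, against at most 0.400 CPM in clusters 13 and 16. Cluster 20 was 23.7% to 29.4% of EEC-like cells in WT, 15.6% in -Dox and 13.6% in +Dox. In Enterocyte-like cells Car4 had 0.522 and 0.245 CPM in -EIPA, 0.731 and 1.53 CPM in +EIPA, 0.0272 CPM in -Dox and 0 in +Dox. No Car4 UMI was found in ISC-like or Tuft-like cells of any library. Car5b, the mitochondrial member, was highest by median in Paneth-like cells, at 0.357 to 1.03 CPM from 3 to 30 UMIs per library. Tuft-like cells of -EIPA 1 had a higher value, 0.827 CPM, from 1 UMI, and Revival-like cells of +EIPA 2 had 0.699 CPM from 7 UMIs.

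**Figure D2:**
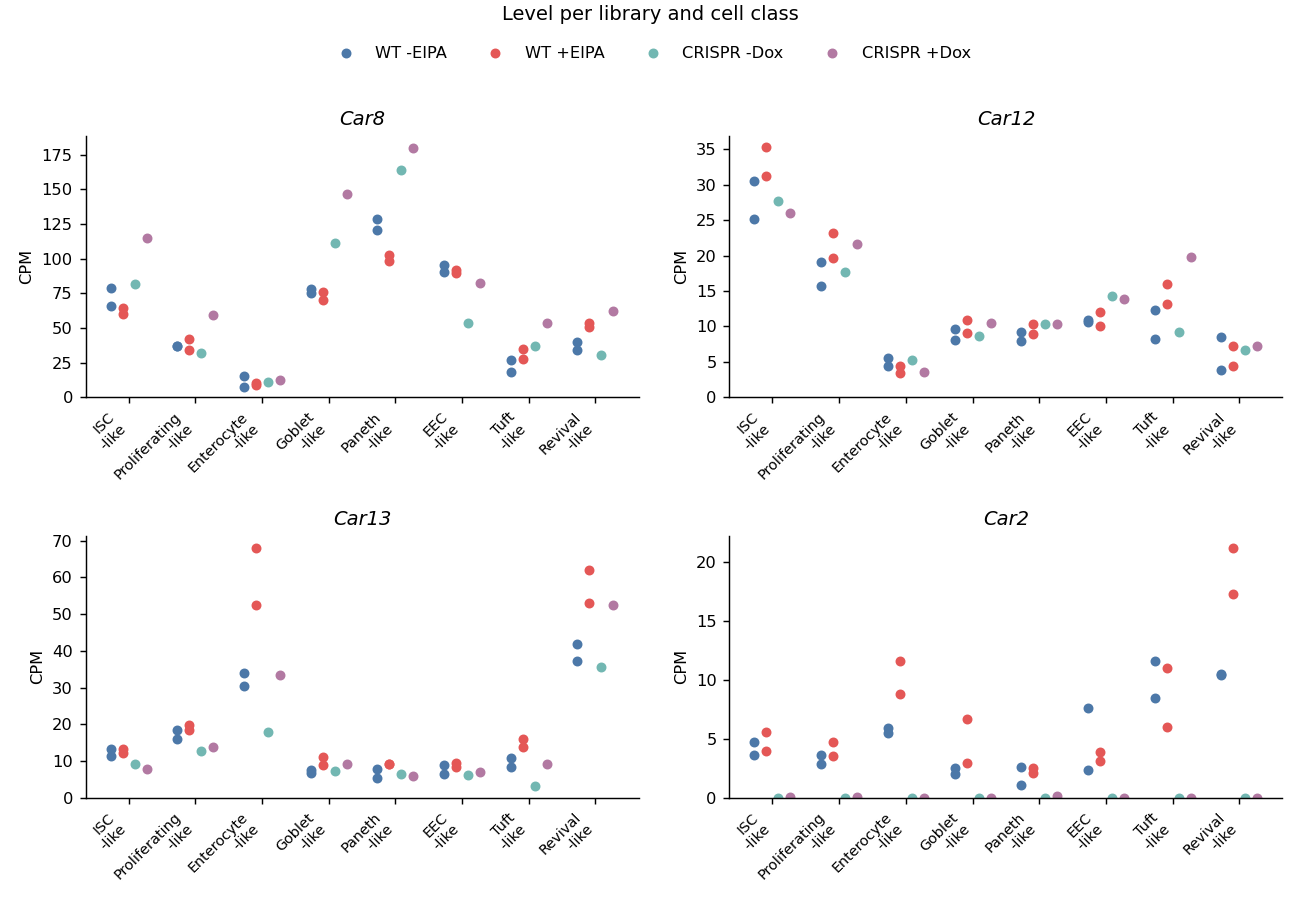
CPM of Car8, Car12, Car13 and Car2 (vertical axes, from 0) in the 8 named classes (horizontal axes), with 1 point per library colored by group. Car8 is highest in Paneth-like and Car12 in ISC-like cells, both being lowest by median in Enterocyte-like cells, where Car13 reaches 68.0 CPM in a +EIPA library. Car2 sits at or near 0 in both CRISPR libraries in each class.

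The genes most like each member over the 48 points of library and class, by Pearson's r of log2(CPM + 1) among 7831 genes, are given as a description. Car8 was most like Tmem63a (r = 0.890), Wars (0.889) and Fam174b (0.881). Car12 was most like Cdca7 (0.933), an ISC marker, Mcm5 (0.918), a component of the replication helicase and a proliferation marker, and Rgcc (0.915). Car13 was most like Aprt (0.945), Pnp (0.927) and Pnp2 (0.907), all 3 enzymes of purine salvage. Car2 was most like Ddah1 (0.910), 2210016F16Rik (0.902) and Ptgr2 (0.899). Car4 was most like the gut hormone genes Pyy (0.850) and Gcg (0.804) and Vim (0.796), which were all 3 over 10 times lower in both CRISPR libraries than in the lowest WT library. Car5b was most like the Paneth cell defensins Defa24 (0.678), Defa30 (0.670) and Defa26 (0.661). Points of 1 library share their depth and cells, so no p is given.

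Whether EIPA shifted the members was tested between the 2 -EIPA and 2 +EIPA libraries with edgeR's quasi-likelihood test on UMIs summed per library and class, with Benjamini-Hochberg adjustment over all genes tested. No member passed the threshold of 0.05 in all cells kept or in any of the 7 classes fitted. This test called 0 of 15890 genes over all cells kept (0%, with 1601 genes at an unadjusted p under 0.05) and 1 of 12255 genes in Enterocyte-like cells (0.00816%). It called 0% in ISC-like, Proliferating-like and Goblet-like cells (466, 610 and 826 genes at an unadjusted p under 0.05), 0.474% in Paneth-like cells, 0.0163% in EEC-like cells and 0.0309% in Tuft-like cells. In the study's source data -EIPA 1 is paired with +EIPA 1 and -EIPA 2 with +EIPA 2, and with the experiment as a block 5.28% of genes passed over all cells kept, 1.46% in Enterocyte-like, 5.74% in Goblet-like cells, 1.75% for EEC-like cells and 0.309% for Tuft-like cells. Values with the block are given where they change a call. It leaves 1 residual degree of freedom, so these calls lean on the spread shared across genes.

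Car13 in Enterocyte-like cells gave the largest shift of the well-counted members. Its 33.9 and 30.5 CPM in -EIPA (32.2 ± 2.38, SD, n = 2) stood against 52.6 and 68.0 CPM in +EIPA (60.3 ± 10.9, SD, n = 2), with no overlap, as for 16.9% of genes of at least 10 CPM in this class that lay above and 39.0% that lay below. The log2 fold change was 1.02 (SE 0.18, 95% interval 0.58 to 1.47, adjusted p = 0.178). With the block it was 1.01 (adjusted p = 0.0381), and DESeq2 gave an adjusted p of 0.000471, where 1.46% and 2.07% of genes passed. Over its 13 alternatives the log2 fold change stayed between 0.81 and 1.21 while the adjusted p ran from 1.96e-06 to 0.999, and leaving out -EIPA 1 brought it to 0.0212, in a fit that called 8.28% of genes.

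Values of the clusters behind the class are given as a description. They divide the cells of the same libraries, and no share of all genes was computed per cluster. In cluster 6 Car13 had 44.98 and 38.8 CPM in -EIPA and 68.7 and 85.5 CPM in +EIPA. For cluster 10 these were 35.4 and 26.2 CPM without EIPA, then 63.1 and 76.2 CPM with it. For cluster 8 they were 25.3 and 26.0 CPM, then 36.1 and 50.8 CPM. Cluster 22 had 28.2 and 33.4 CPM against 43.2 and 58.4 CPM, and in cluster 23, with 287 cells, the groups overlapped. The makeup of the class moved in the same libraries. Cluster 6 held 32.9% and 26.8% of Enterocyte-like cells in -EIPA and 40.0% and 41.3% in +EIPA, and the 20 enterocyte markers summed to 43934 and 33179 CPM in -EIPA and 52686 and 51945 CPM in +EIPA. In this class the 9 Revival markers summed to 309 and 271 CPM in -EIPA and 465 and 693 CPM in +EIPA. The part of these shifts in the Car13 result was not tested beyond the within-cluster values.

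**Figure D3:**
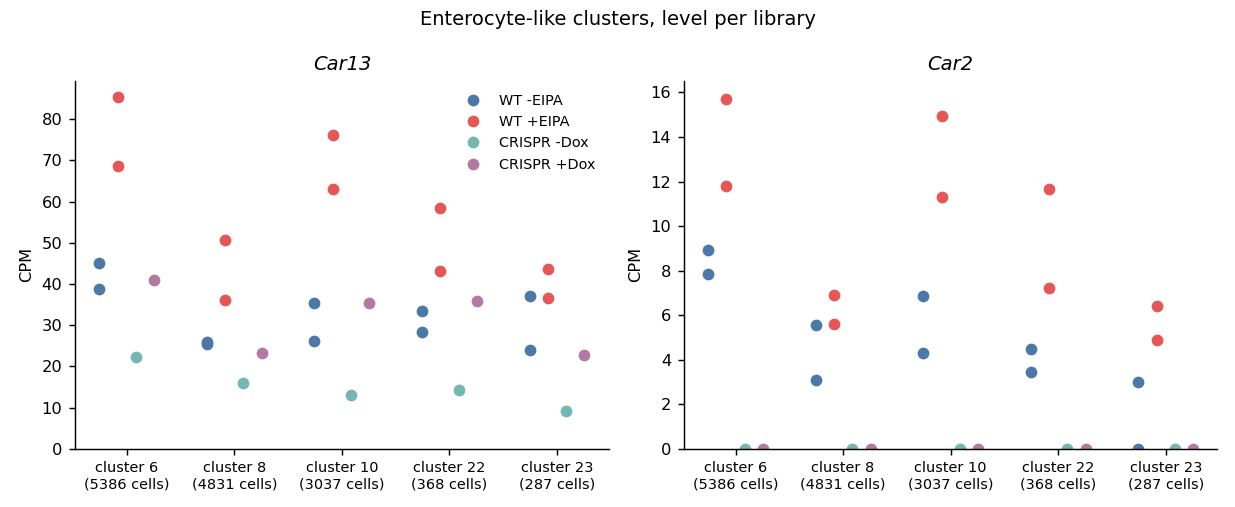
CPM of Car13 and Car2 (vertical axes, from 0) in the 5 Enterocyte-like clusters (horizontal axes, with the number of cells), with 1 point per library colored by group. Both +EIPA libraries lie above both -EIPA libraries for Car13 in clusters 6, 8, 10 and 22 and overlap in cluster 23, and -Dox is the lowest library for Car13 in all 5. The clusters divide the same libraries, so they are not repeats, and no share of all genes was computed per cluster.

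Over all cells kept, Car13 had a log2 fold change of 0.67 (SE 0.11 and adjusted p = 0.244), which passed with the block (0.67, adjusted p = 0.0198) and in DESeq2 (adjusted p = 0.000237), where 3.32% of genes did. The makeup of the cultures differed between the same libraries. Enterocyte-like cells were 13.1% and 8.83% of cells in -EIPA and 17.7% and 15.9% in +EIPA, and Revival-like cells 0.547% and 1.16% in -EIPA and 1.24% and 3.07% in +EIPA. The Enterocyte-like share depended on the clustering, and the groups overlapped at resolution 1.2 (22.7% and 16.9% against 25.2% and 21.9%) and with strict limits on cells (17.7% and 12.8% against 20.8% and 17.5%). The part of these shares in the values over all cells kept was not tested, for Car13 or for any gene below. In the other fitted classes the log2 fold changes of Car13 were 0.12 to 0.65. ISC-like cells had 11.3 and 13.2 CPM in -EIPA and 12.2 and 13.2 CPM in +EIPA, a log2 fold change of 0.12 (95% interval -0.21 to 0.46), and Proliferating-like cells one of 0.21 (-0.09 to 0.52). Tuft-like cells had 8.27 and 10.9 CPM against 16.0 and 13.9 CPM (log2 fold change 0.65, adjusted p = 1.00), from 10 to 33 UMIs per library. Revival-like cells, which were not fitted, had 37.3 and 41.8 CPM against 52.9 and 62.0 CPM. Among the unnamed clusters, also not fitted, cluster 5 had Car13 at 19.4 and 21.6 CPM in -EIPA and 33.1 and 35.5 CPM in +EIPA. Cluster 7 had 16.7 and 20.2 CPM, then 23.1 and 25.4 CPM. In cluster 12 the groups overlapped, with 15.2 and 12.1 CPM, then 12.8 and 16.0 CPM. Goblet-like, Paneth-like and EEC-like cells had means under 10 CPM, and in Paneth-like cells, named after its values were seen, from 5.23 and 7.79 to 9.07 and 9.28 CPM, the blocked fit passed (log2 fold change 0.55, adjusted p = 0.0328), where 3.17% of genes did, and leaving out 1 library gave 0.32 to 0.93. The 20 enterocyte markers summed to 2117 and 1748 CPM in Paneth-like cells of -EIPA and to 4061 and 3405 CPM in those of +EIPA, and their part in this value was not tested.

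The difference of the Car13 effect between Enterocyte-like and ISC-like cells was itself fitted, with the library as a block, and came to 0.94 on the log2 scale (SE 0.20, 95% interval 0.50 to 1.38, adjusted p = 0.151), where 0.00786% of genes passed. It passed in DESeq2 (adjusted p = 0.0411, with 0.533% of genes), and without -EIPA 1 (adjusted p = 1.57e-13) or -EIPA 2 (adjusted p = 0.00377), fits with 1 lone library in a group that called 27.7% and 3.66% of genes. The difference from Goblet-like cells was 0.57 (SE 0.19 and adjusted p = 0.201) and that from Paneth-like cells 0.51 (SE 0.22 and adjusted p = 0.340). No member passed in these fits, where 0.302% and 0.0938% of genes did. Both passed for Car13 when -EIPA 1 was left out, at 0.74 (adjusted p = 0.00386) and 0.86 (adjusted p = 1.48e-05), in fits that called 16.3% and 19.0% of genes. Without -EIPA 2 they were 0.30 (adjusted p = 0.669) and -0.022 (adjusted p = 0.998), in fits that called 2.25% and 2.72% of genes.

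By the rule for named genes a change was given only for a mean of at least 10 CPM, and Car2, below it in the fitted classes, is named here because an alternative fit passed, after its values were seen. Both +EIPA libraries lay above both -EIPA libraries over all cells kept. So did 10.8% of genes of at least 10 CPM, a level Car2 did not reach, while 44.9% lay below. Beside the shares of Enterocyte-like and Revival-like cells given above, the log2 fold change was 0.72 (SE 0.21 and adjusted p = 0.374). It was 0.46 to 0.94 with 1 library left out, and the blocked fit passed (adjusted p = 0.0343), where 5.28% of genes did. In Enterocyte-like cells the log2 fold change was 0.95 (SE 0.20 and adjusted p = 0.208). It passed in DESeq2 (adjusted p = 0.0385), where 2.07% of genes did, and not with the block (0.0626). Of the clusters behind this class, which divide the same libraries, cluster 6 had 8.91 and 7.83 CPM without EIPA, then 11.8 and 15.7 CPM with it. Cluster 10 had 6.87 and 4.31 CPM, then 11.3 and 14.9 CPM. Goblet-like cells had 1.98 and 2.53 CPM in -EIPA and 2.99 and 6.70 CPM in +EIPA. They passed with the block (log2 fold change 1.21, adjusted p = 0.00157), where 5.74% of genes did. There the value of +EIPA 2 drew on cluster 21, at 28.6 CPM from 102 cells, while cluster 9 had 3.95 CPM, and without +EIPA 2 the log2 fold change was 0.41, against 1.59 without +EIPA 1. In the same cells the enterocyte markers summed to 1476 and 1177 CPM in -EIPA and 1999 and 2303 CPM in +EIPA, and the 9 Revival markers to 132 and 246 CPM in -EIPA and 282 and 451 CPM in +EIPA. Their part in the Car2 value was not tested. Proliferating-like cells passed with the block as well (log2 fold change 0.41, adjusted p = 0.0427), where 6.35% of genes did, and leaving out 1 library gave 0.15 to 0.63.

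Car12 differed little in fold in ISC-like and Proliferating-like cells. In ISC-like cells its 30.4 and 25.1 CPM in -EIPA (27.8 ± 3.75, SD, n = 2) stood against 35.3 and 31.2 CPM in +EIPA (33.3 ± 2.92, SD, n = 2), a log2 fold change of 0.33 (SE 0.13 and adjusted p = 0.998, and 0.00827 with the block, where 6.14% of genes passed). Without the correction over libraries this class held 10.6% and 15.3% of cells in -EIPA but 2.11% and 0.919% in +EIPA, and 12.4% in -Dox but 0.637% in +Dox, so that every ISC-like comparison rests on that correction. The log2 fold change of Car12 was then 0.093, and in the corrected class it was 0.20 to 0.47 with 1 library left out. In Proliferating-like cells it was 0.36 (SE 0.12 and adjusted p = 0.996, and 0.00328 with the block, where 6.35% of genes passed). Leaving out 1 library gave 0.25 to 0.49. In both classes both +EIPA libraries lay above both -EIPA libraries, as did 6.69% and 5.27% of genes of at least 10 CPM in these classes. Tuft-like cells had Car12 at 8.27 and 12.3 CPM in -EIPA and 16.0 and 13.1 CPM in +EIPA, from 10 to 35 UMIs per library. These groups did not overlap, as for 8.74% of genes of at least 10 CPM that lay above. With 1 library left out, the log2 fold change there was 0.30 to 0.86.

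Car8 passed in no fit of a class, with or without the block. Its log2 fold change was -0.21 in Paneth-like cells (95% interval -0.49 to 0.06), where both +EIPA libraries lay below both -EIPA libraries, as did 26.3% of genes of at least 10 CPM. It was -0.15 in ISC-like cells (-0.43 to 0.14), where both also lay below, as did 30.8% of genes. With 1 library left out the log2 fold change ran from -0.27 to -0.16 in Paneth-like and -0.27 to -0.0057 in ISC-like cells. Tuft-like cells went the other way, from 18.2 and 26.7 CPM to 34.7 and 27.9 CPM (log2 fold change 0.48, -0.08 to 1.03), without overlap, as for 8.74% of genes of at least 10 CPM. These values came from 22 to 76 UMIs per library. The 95% Poisson intervals of -EIPA 2 (21.1 to 33.5 CPM) and +EIPA 2 (21.6 to 35.5 CPM) overlapped. There the log2 fold change was 0.29 to 0.83 with 1 library left out. Revival-like cells had 34.5 and 40.2 CPM against 53.6 and 50.9 CPM, where 15.0% of genes lay above. Over all cells kept the log2 fold change of Car8 was 0.01 (-0.25 to 0.27), a sign that turned to -0.07 when libraries were scaled by size alone.

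Car4 and Car5b stayed far below 10 CPM and are given by their levels, apart from a call of Car4 and a median over the members below. With no filter on low counts 3 members passed in Enterocyte-like cells, Car2, Car4 (adjusted p = 0.0340) and Car13, where 3.89% of genes did, Car13 passed over all cells kept, where 0.866% did, and Car2 passed in Goblet-like cells, where 1.80% did. Over all cells kept Car4 had 0.124 and 0.0919 CPM in -EIPA and 0.290 and 0.370 CPM in +EIPA.

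The other genes of acid and bicarbonate handling were read from lists. Over all cells kept the 6 members had a median log2 fold change of 0.49 and the 13 tested of 15 bicarbonate, chloride, proton and lactate transport genes one of 0.15 with 9 above 0, against -0.0032 for all genes, and none of these passed. The median of the members includes Car4 and Car5b, counted from few UMIs. With 1 library left out, Car8 ran from -0.098 to 0.13 and Car12 from 0.038 to 0.23. Car13 then ran from 0.54 to 0.80 and Car2 from 0.46 to 0.94. In Paneth-like cells 1 of 13 transport genes passed, and it was higher with EIPA. This was Slc26a6, an apical exchanger of chloride and bicarbonate, which rose from 5.94 and 5.94 CPM to 16.6 and 12.3 CPM (log2 fold change 1.35, SE 0.17, adjusted p = 0.0231), where 0.474% of genes passed. The enterocyte markers in Paneth-like cells, given above for Car13, were higher in the same libraries, and their part in this value was not tested. In Enterocyte-like cells Slc26a6 had 107 and 81.0 CPM in -EIPA and 152 and 141 CPM in +EIPA (log2 fold change 0.75, adjusted p = 0.255). Over all cells kept it had 19.5 and 11.8 CPM against 39.1 and 32.9 CPM (log2 fold change 1.29, adjusted p = 0.263), which passed with the block (adjusted p = 0.0210). The enterocyte markers over all cells kept summed to 7219 and 4346 CPM in -EIPA and 12088 and 10799 CPM in +EIPA, and their part in this value was not tested.

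None of the 10 hypoxia-inducible genes passed over all cells kept (median 0.21, 9 above 0). The largest fold among them was that of Ndrg1, a stress-responsive gene, at 0.64 (adjusted p = 0.588), which ran from 0.27 without -EIPA 2 to 1.14 without -EIPA 1. Of the 10 other carbonic anhydrase genes, 6 were tested and 3 lay above 0, and Car9, a hypoxia-inducible transmembrane carbonic anhydrase, was the one of at least 10 CPM. Car9 had 99.5 and 70.8 CPM in -EIPA, 100.7 and 80.5 CPM in +EIPA, 103 CPM in -Dox and 92.0 CPM in +Dox, a log2 fold change with EIPA of 0.17 (adjusted p = 0.857). The 3 inositol trisphosphate receptor genes did not pass, and the one of at least 10 CPM, Itpr3, had a log2 fold change of 0.06 (adjusted p = 0.946) that turned to -0.02 when libraries were scaled by size alone. Erythroid genes were too low to be fitted.

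For the CRISPR line, with 1 library each, no test was possible, and ratios of +Dox to -Dox carry exact 95% intervals of the counting error only. Among members of at least 10 CPM, 4 values in the 7 fitted classes passed 1.5-fold, all higher with Dox. Car13 in Enterocyte-like cells had 17.9 CPM in -Dox and 33.3 CPM in +Dox, a ratio of 1.87 (1.71 to 2.04), in a class where 6.03% of genes of at least 10 CPM passed higher. Car8 in Proliferating-like cells had 32.1 CPM in -Dox and 59.7 CPM in +Dox, a ratio of 1.86 (1.78 to 1.95), where 1.47% of genes passed higher. Car8 in EEC-like cells had 53.6 and 82.3 CPM, a ratio of 1.54 (1.30 to 1.83), where 2.12% passed higher, in the class whose EEC markers were low in this line. Car12 in Tuft-like cells had 9.21 and 19.7 CPM from 6 and 15 UMIs, a ratio of 2.14 with an interval from 0.785 to 6.74 that includes 1, where 11.6% passed higher. Revival-like cells, not among the fitted classes, had Car8 at 30.7 and 62.5 CPM, a ratio of 2.04 (1.54 to 2.73), where 8.71% passed higher.

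The other Car8 ratios were 1.46 in Tuft-like cells (0.863 to 2.53, an interval that includes 1, from 24 and 41 UMIs), 1.40 (1.31 to 1.49) in ISC-like, 1.32 (1.22 to 1.43) in Goblet-like, 1.15 (1.02 to 1.31) in Enterocyte-like and 1.10 (1.04 to 1.15) in Paneth-like cells, where 11.6%, 0.901%, 2.53%, 6.03% and 1.35% of genes passed 1.5-fold higher. Over all cells kept it was 1.65 (1.61 to 1.69), where 4.67% of genes passed higher. Paneth-like cells, the class with the highest Car8 level, were 5.74% of cells in -Dox and 12.9% in +Dox, and Proliferating-like cells, with a lower level, were 38.2% and 25.0%. The part of these shares in the all-cell ratio was not tested. Car12 was at 0.930 (0.886 to 0.976) over all cells kept. In ISC-like cells its ratio was 0.939 (0.834 to 1.06) and in Proliferating-like cells 1.23 (1.15 to 1.31).

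Among the Enterocyte-like clusters, cluster 6 had Car13 at 22.4 CPM in -Dox and 41.1 CPM in +Dox. Cluster 8 stood at 16.0 CPM, then 23.2 CPM, and cluster 10 at 13.0 CPM, then 35.4 CPM. Cluster 6 held 33.8% of Enterocyte-like cells in -Dox and 50.8% in +Dox, and the enterocyte markers summed to 36234 and 50385 CPM. The Revival markers in this class summed to 262 CPM in -Dox and 547 CPM in +Dox. Their part in the Car13 ratio was not tested. The -Dox value of Car13 in this class, 17.9 CPM, lay below both -EIPA values, and the +Dox value lay between them. Of the transport genes of at least 10 CPM, 1 of 9 passed 1.5-fold higher and 0 lower over all cells kept, beside 4.67% and 1.56% of all such genes, while in Proliferating-like cells 0 of 8 passed higher and 2 lower, beside 1.47% and 1.21%. The 1 that was higher was Slc26a6, with 25.3 CPM in -Dox and 59.2 CPM in +Dox, a ratio of 2.34, and the enterocyte markers over all cells kept summed to 7986 CPM in -Dox and 15889 CPM in +Dox, whose part in it was not tested. In Enterocyte-like cells 3 of 12 transport genes passed 1.5-fold higher and 0 lower, beside 6.03% and 8.85% of genes of at least 10 CPM. Slc16a3, a lactate transporter, had a ratio of 0.362 in Proliferating-like and 0.291 in ISC-like cells and 0.755 over all cells kept, and is named after its values were seen. Hypoxia-inducible genes went down with Dox past 1.5-fold in 8 of 9 well-counted genes in Proliferating-like cells, where 1.21% of genes did, and in 2 of 9 over all cells kept, where 1.56% did. Elsewhere the count was 2 of 9 in Enterocyte-like (8.85% of genes), 3 of 9 in Goblet-like (1.15%) and 4 of 7 in ISC-like cells (1.25%). It was 5 of 9 in Paneth-like (1.82%) and 6 of 9 in EEC-like cells (2.02%). Tuft-like cells had 8 of 9 (12.4%) and Revival-like cells 4 of 9 (15.2%).

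**Figure D4:**
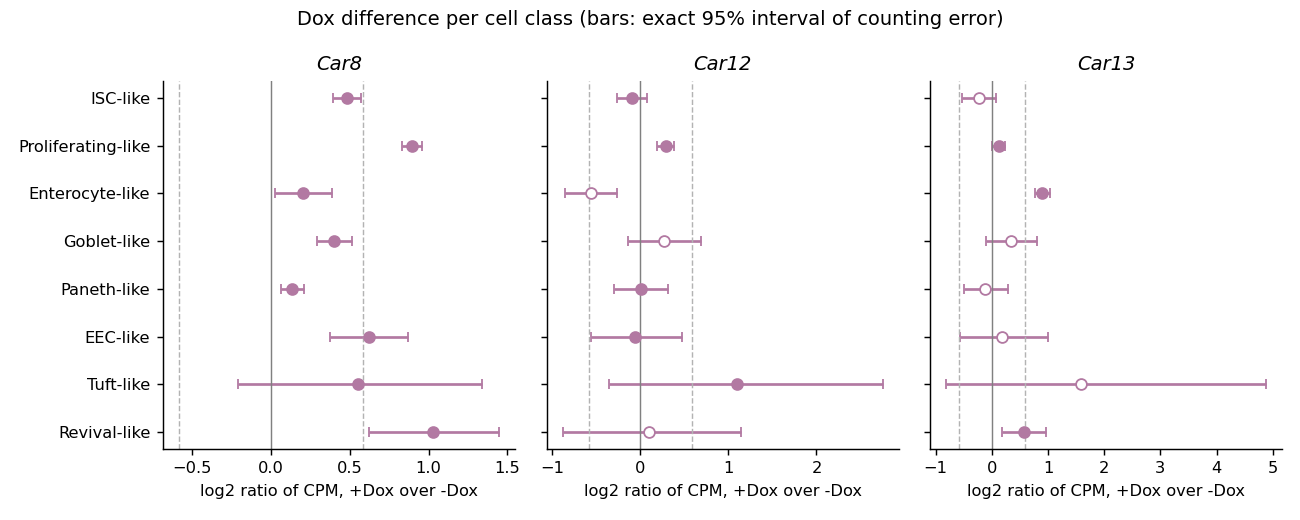
Log2 ratio of CPM, +Dox over -Dox (horizontal axes), for each member counted well enough (panels) in the named classes (vertical axis), with bars for the exact 95% interval of counting error, filled points for a mean of at least 10 CPM, open points below that, and dashed lines at 1.5-fold. Car8 lies right of 0 in every class and passes 1.5-fold in Proliferating-like, EEC-like and Revival-like cells, and Car13 does so in Enterocyte-like cells at a ratio of 1.87.

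Car2 differed most between the lines. The WT libraries held 3668 Car2 UMIs among 798881900, a pooled level of 4.59 CPM. The -Dox library held 0 among 232674223, and since 3 counts there would be 0.0129 CPM, the level was at least 252-fold lower than in the lowest WT library. The +Dox library held 6 among 236696262, which is 128-fold lower than the lowest WT library, and these were single UMIs in 6 cells, none of whose barcodes was found among the WT cells. Within classes the bound for -Dox against the lowest WT library ran from at least 103-fold lower in Proliferating-like and 67.9-fold in Enterocyte-like cells through 27.6-fold in ISC-like, 7.27-fold in Revival-like, 6.05-fold in Goblet-like and 4.59-fold in Paneth-like cells to 2.54-fold in EEC-like and 1.31-fold in Tuft-like cells.

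Neighbors of Car2 on chromosome 3 were counted in both lines. Car13, 223 kb away, had 12.7 to 27.4 CPM, E2f5, a cell cycle transcription factor 280 kb away, had 17.2 to 20.5 CPM, and Lrrcc1, 314 kb away, had 10.3 to 13.7 CPM in the 6 libraries. Car3, the nearest gene at 13.8 kb, and Car1 had 0 to 4 UMIs per library in either line, so they give no comparison between the lines. By a rule set after the Car2 values had been seen, 78 of 11521 genes of at least 1 CPM (0.677%) were over 10 times lower in both CRISPR libraries than in the lowest WT library, and 12 (0.104%) were over 10 times higher than in the highest. Car2 was among the 78, with the lysosomal gene Hexa (49.1 to 54.3 CPM in WT, 0.0129 and 0.0634 CPM in the CRISPR line) and the hormone gene Gip (308 to 529 CPM in WT, 0 and 0.0338 CPM). So were 2210016F16Rik and Ptgr2, which were among the genes most like Car2. The -Dox library, which held 0 Car2 UMIs, was not given Dox, and editing without Dox was not tested. With 1 clonal line, infected and selected, set against WT, the clone, the selection and the culture cannot be told apart.

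**Figure D5:**
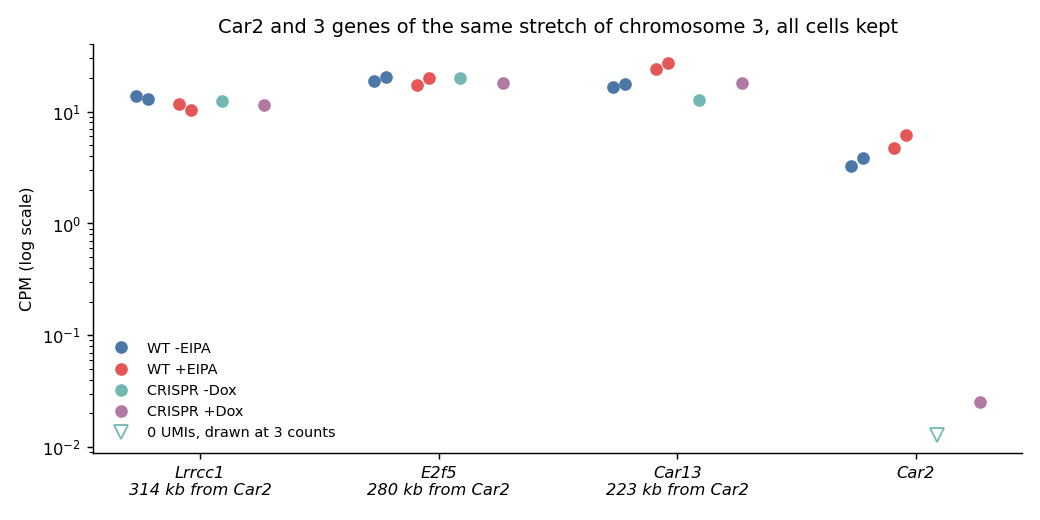
CPM over all cells kept (vertical axis, log scale) of Car2 and of Car13, E2f5 and Lrrcc1 on the same stretch of chromosome 3 (horizontal axis, with the distance from Car2 in kb), with 1 point per library colored by group. The neighbors lie at 10.3 to 27.4 CPM in all 6 libraries, while Car2 is at 3.25 to 6.24 CPM in WT, 0.0253 CPM in +Dox and 0 UMIs in -Dox, drawn as an open triangle at 3 counts.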

How the data were processed

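UMI counts per gene and cell of 6 single-cell libraries were deposited by the authors, who made them with Cell Ranger 6.1.2 on mm10 (GRCm38). Cells passing the limits given above were clustered here (3000 genes, Pearson residuals with theta 100, 45 principal components, an own implementation of Harmony correction over libraries, 20 neighbors, Leiden clusters at resolution 0.8) without carbonic anhydrase or list genes. A cluster was named where at least 2 of its 20 leading genes were markers of a class. Doublets were called per library at 0.8% per 1000 barcodes and kept.

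Counts were summed per library and class and tested with edgeR 4.0.16 (R 4.3.3, quasi-likelihood, TMM, filterByExpr, two-sided, threshold 0.05). The fit was also run on simulated counts drawn without an effect shared by same-numbered libraries. That setting differs from these libraries, so the run does not measure how many changes the test would find here. DESeq2 1.42.0, no filter, library size scaling, the replicate block, doublet removal, other clusterings, stricter cell limits (2000 genes, 10% mitochondrial UMIs) and leaving out each replicate were alternatives. Replicates pair by experiment in the study's source data, and deviations of same-numbered libraries correlated at r = 0.690 over all cells kept and 0.175 to 0.739 in classes. Nothing says that replicates came from separate animals, so p-values measure the spread between these libraries. An exact permutation test of 2 against 2 cannot go below 0.333. Intervals and floors of 3 counts cover counting error only.

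The members and lists were chosen with earlier results of these data known. Members were always named, a change was given for a mean of at least 10 CPM, from each list genes past the threshold or else the one with the largest fold of at least 10 CPM were named, and for likeness the 3 highest correlations. Coding stretches were read from GENCODE vM21 transcripts on GRCm38. Their translations were aligned with MAFFT 7.526, and codons were placed from that alignment. The level of the targeted gene and the stretch of 1 member are not reported here.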

Additional observations from a re-analysis of the deposited data

Results flagged for a closer look

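Car8 passed in no class fitted, and Revival-like cells were not fitted, but the order of its libraries with EIPA differed between classes. The ratio of mean CPM, +EIPA over -EIPA, was 1.39 in Tuft-like cells and 1.40 in Revival-like cells, with both +EIPA libraries above both -EIPA libraries in each, as for 8.74% and 15.0% of genes of at least 10 CPM. It was 0.862 in ISC-like cells and 0.808 in Paneth-like cells, with both +EIPA libraries below both -EIPA libraries in each, as for 30.8% and 26.3% of genes of at least 10 CPM. The Tuft-like values came from 22 to 76 UMIs per library. The difference between classes was not tested.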

How the results depend on the processing

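With edgeR as described, without the replicate block, with the filter and with all 4 libraries, no member passed over all cells kept, in a class or in a difference between classes, and the counts of members that passed in other fits were as follows. Shares of all genes that passed are in brackets. With no filter on low counts 1 passed over all cells kept (0.866%), 3 in Enterocyte-like (3.89%) and 1 in Goblet-like cells (1.80%). With the replicate block, 1 passed in ISC-like (6.14%), 2 over all cells kept (5.28%) and 2 in Proliferating-like cells (6.35%). The block also gave 1 in Enterocyte-like (1.46%), 1 in Goblet-like (5.74%) and 1 in Paneth-like cells (3.17%). With DESeq2 1 passed over all cells kept (3.32%), 2 in Enterocyte-like cells (2.07%) and 1 in the difference between Enterocyte-like and ISC-like cells (0.533%). Leaving out 1 replicate gave 0 to 2 in Enterocyte-like cells, and 0 to 3, 0 to 2 and 0 to 4 in the differences of Enterocyte-like from ISC-like, Goblet-like and Paneth-like cells, the highest without -EIPA 1, where 3664 of 13226, 2096 of 12878 and 2546 of 13384 genes passed. The block changed no other call of a member. The cause of these shifts was not tested.

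Directions turned for small effects. With library size scaling the log2 fold change was -0.070 for Car8 over all cells kept, -0.034 for Car8 in EEC-like cells and -0.019 for Itpr3. Without doublets it was -0.020 for Car8 over all cells kept, 0.049 for Car8 in Enterocyte-like cells, -0.0067 for Car8 in EEC-like cells and -0.55 for Car12 in EEC-like cells. Leaving out 1 replicate, Car8 ran from -0.10 to 0.13 over all cells kept, -0.041 to 0.24 in Proliferating-like, -0.50 to 0.40 in Enterocyte-like, -0.078 to 0.017 in Goblet-like and -0.023 to 0.030 in EEC-like cells, Car12 from -0.066 to 0.18 in EEC-like cells, Itpr3 from -0.072 to 0.21, Car9 from -0.046 to 0.42 and the Car13 difference between Enterocyte-like and Paneth-like cells from -0.022 to 0.86. Of 367 single EIPA values under alternatives 319 kept direction and side of the threshold. The 4 Dox values past 1.5-fold became 6 without correction over libraries and 3 without doublets.

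Over all genes, edgeR called 0 over all cells kept, against 839 with the block, 597 with DESeq2 and 198 with no filter. In Enterocyte-like cells the counts were 1, 179, 291 and 720, and 1055 without -EIPA 1.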

Other observations

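Cluster 12, with 2405 cells, met no marker rule and stayed outside the classes. Mitochondrial genes were 7 of its first 10 leading genes, and its cells had a median of 0.326 times the median UMIs of their library. It had Car12 levels of 34.6 and 45.03 CPM in -EIPA, 61.8 and 40.2 CPM in +EIPA, 26.4 CPM in -Dox and 24.6 CPM in +Dox.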
